A study of Mus musculus with 12 samples.

Results

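The cytosolic ribosomal protein genes encode the proteins of the ribosome that translates nuclear transcripts. They were chosen by name alone: protein-coding genes of the GENCODE M21 annotation called Rpl or Rps with a number and at most 1 letter a, x or l, together with Rplp0, Rplp1, Rplp2 and Rpsa, and with at least 10 reads in total over 11 amygdalae. The naming rule found 80 genes and 79 of them passed the read minimum, 48 of the large (60S) and 31 of the small (40S) subunit, out of 47729 genes in the deposited data and 26963 genes tested. The gene that did not pass was Rpl10l, a germ-cell retrogene of Rpl10 with no reads.

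Each ribosome carries 1 copy of most of these proteins, with the acidic stalk proteins Rplp1 and Rplp2 as the known exception, so their synthesis is balanced across many genes on many chromosomes. Their transcripts begin with a run of pyrimidines, the 5' terminal oligopyrimidine tract, through which the mTOR pathway and Larp1 set their translation. The mammalian genome also holds very many processed pseudogenes of these genes, reverse-transcribed copies without introns that resemble the parent transcript closely. In neurons ribosomes sit in the cell body and in dendrites, and phosphorylation of Rps6 is widely used as a marker of neuronal activity.

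Amygdala mRNA was sequenced from 12 female C57/BL6 mice, 1 library per mouse, after an elevated plus maze at 9 weeks of age, a light/dark box at 10 weeks and a three-chamber social interaction test at 11 weeks. The labels name no allele and no drug, and tissue was taken after rapid decapitation. The labels place 3 mice in the less anxious group (mice 3, 7 and 12), 4 in the anxious group (mice 1, 4, 8 and 11) and 4 in the more anxious group (mice 2, 6, 9 and 10), and give mouse 5 no group. Mouse 5 was left out by the study as an outlier in a principal component analysis of expression. The study made these groups from tertiles of the second principal component of the same expression data, so a gene that contributes to that component differs between the groups by construction and a p-value between groups is not independent evidence. The maze, light box and social measures were recorded in the animals themselves and do not share this limit. The labels do not follow these measures in every mouse. More anxious mouse 6 had the highest open-arm time (29.2%) and the highest share of distance in the light (41.9%) of the 12 mice.

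Totals ran from 31745630 to 45142355 reads per library, and 78 of the 79 genes had reads in each of the 11 grouped mice. All 8 neuronal marker genes checked for the tissue were detected, with a summed level between 6879 and 9199 CPM (read counts scaled to a fixed library total, with TMM factors). Marker genes of astrocytes, oligodendrocytes, microglia, endothelium, choroid plexus, erythrocytes and pituitary were detected as well. Mitochondrially encoded transcripts took 10.6% to 15.9% of the reads.

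The sequence around the annotated transcription start was searched for the pyrimidine tract described above. Windows of 60 bases, from 30 bases before the annotated start to 29 after it, were read from RefSeq promoters of GRCm38.p6, where 59 of the 79 were listed, with 71 windows in all. The windows of 8 genes that return below are printed 5' to 3' on the gene's strand, and capitals mark the longest unbroken run of at least 8 C or T that touches the 15 bases on either side of the start. The first 6 carry such a run and the last 2 do not.
Rpl28, chr7:4792935-4792994, plus strand: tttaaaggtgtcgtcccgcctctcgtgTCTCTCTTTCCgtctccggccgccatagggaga
Rpl35, chr2:39005102-39005161, minus strand: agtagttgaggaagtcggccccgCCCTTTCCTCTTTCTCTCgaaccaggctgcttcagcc
Rps10, chr17:27635215-27635274, minus strand: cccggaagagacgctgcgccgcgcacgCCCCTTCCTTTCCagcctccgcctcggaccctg
Rps26, chr10:128626477-128626536, minus strand: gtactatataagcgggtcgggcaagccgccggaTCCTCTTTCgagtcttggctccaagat
Rps6, chr4:86857338-86857397, minus strand: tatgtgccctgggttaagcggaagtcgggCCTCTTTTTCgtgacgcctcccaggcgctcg
Rpl27a, chr7:109519165-109519224, plus strand: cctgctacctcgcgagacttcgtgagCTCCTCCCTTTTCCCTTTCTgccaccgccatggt
Rps23, chr13:90923092-90923151, plus strand: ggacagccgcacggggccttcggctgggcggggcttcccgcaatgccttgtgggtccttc
Rps4x, chrX:102189362-102189421, minus strand: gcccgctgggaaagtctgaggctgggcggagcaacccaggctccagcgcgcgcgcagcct

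A run of this kind was present in 31 of the 71 windows (43.7%), against 17.6% of all 32851 promoter windows of the same length. The letters CTTTC, which often lie inside such a run, were present on the gene's strand in 23 windows (32.4%) against 7.93% of all windows. The letters CGGAAG, the core of sites bound by ETS factors and searched on both strands, were present in 19 windows (26.8%) against 6.57% of all windows. In the printed windows of Rpl28, Rpl35, Rps10, Rps26 and Rpl27a CTTTC lies within the run. A match describes the reference sequence at an annotated start, and the lack of a run in Rps23 and Rps4x says only that these letters are not in this window.

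Transcript levels, compared between genes as mean CPM per kb of transcript, spread over a wide range (plot of levels by gene). The median of the 79 genes was 131 CPM per kb and 45 of them exceeded 100. Rplp1, an acidic protein of the stalk that recruits elongation factors, was highest at 826 CPM per kb, followed by Rpl41 at 661, Rps15, which lies near the decoding site, at 626, Rpl26 at 437 and Rpl19 at 370, both of the latter near the exit of the peptide tunnel. At the other end, 2 paralogs lay far below the rest. Rpl3l, the form of Rpl3 known from striated muscle, had 0.204 CPM per kb against 335 for Rpl3, and Rpl39l, the testis form of Rpl39, had 0.104 CPM per kb against 50.3 for Rpl39.

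**Figure D1:**
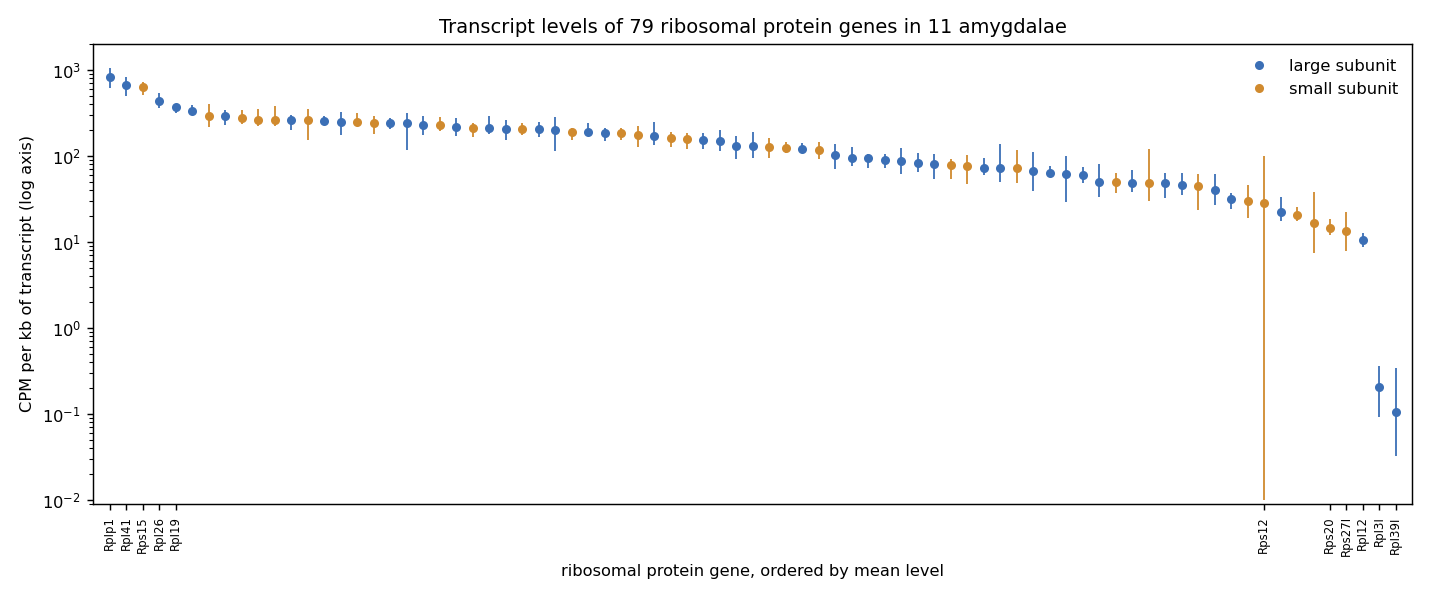
Mean CPM per kb of transcript over 11 mice (points, log axis) and the range over those mice (lines) for 79 genes ordered by level, large subunit in blue and small subunit in orange, with names for the highest 5, the lowest 5 and Rps12. All genes but 2 lie above 10 CPM per kb, and the line of Rps12 reaches the foot of the axis because the gene is listed at 0 in 3 mice.

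Rpl12 (10.4 CPM per kb), Rps27l (13.5) and Rps20 (14.6) complete the lowest 5. The place of Rps20 depends on its gene model, which is 3706 bases long with 357 coding bases, and likewise that of Rps15a, with 5179 and 390. Per kb of coding sequence Rpl41, whose protein is one of the shortest known and has a coding length of 75 bases, was highest at 3854 CPM per kb and Rplp1 second at 1205, while Rpl3l and Rpl39l stayed lowest at 0.23 and 0.548.

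Only 35 reads in 11 libraries were assigned to Rpl39l and 117 to Rpl3l, so their values carry large counting error. Rps27l, the p53-responsive paralog of Rps27, was close to Rps27 itself, at 13.5 against 16.7 CPM per kb. Most reads of the Rps27 type were assigned to its retrogene, as described next.

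Reads were divided between the genes and their copies (bar plot of counts on genes and copies). In all, 272 annotated copies, pseudogenes and the retrogene Rps27rt, are named for 57 of the 79 genes, and 239 of them had a read. The remaining 22 genes have no copy by name. For 24 genes at least 10% of the joint CPM lay on copies, and for 13 of them more than on the gene itself. Salmon assigns a read that matches several transcripts by a model, so the division between a gene and a near-identical copy is uncertain, and these genes are best read together with their copies.

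Rps27 had 5.77 CPM and its copies 121.7 CPM, almost all on Rps27rt, so that 95.5% of the joint value lay on copies. Rps23, a protein of the decoding centre, had 28.0 CPM against 154.3 on copies (84.6%). Rps6, the S6 kinase substrate, had 62.7 CPM against 176.2 on copies (73.7%), of which Rps6-ps4 held 176.0. For Rpl10, which joins the 60S subunit last, the values were 49.5 and 182.7 CPM (78.7%).

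The spread between mice fell when the copies were added. Over the 24 genes the median SD of log2 CPM across 11 mice was 0.30 for the gene alone and 0.20 for the gene with its copies, and the SD was smaller with copies in 20 of 24. For Rps23 it went from 0.41 to 0.10, for Rps6 from 0.34 to 0.10, for Rpl10 from 0.54 to 0.18 and for Rps27 from 0.75 to 0.21. In these genes most of the joint value lies on copies, and the spread of the copies alone is not given here. Among the 53 genes with at least 1 CPM and under 10% on copies the median SD was 0.19. In 15 of the 24 the log2 levels of gene and copies were negatively correlated over 11 mice, with Rpl14 (r = -0.91) and Rps25 (r = -0.76) at the low end. Rps27a, one of the genes that encode ubiquitin fused to a ribosomal protein, was an exception, with an SD of 0.39 alone and 0.49 with copies.

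**Figure D2:**
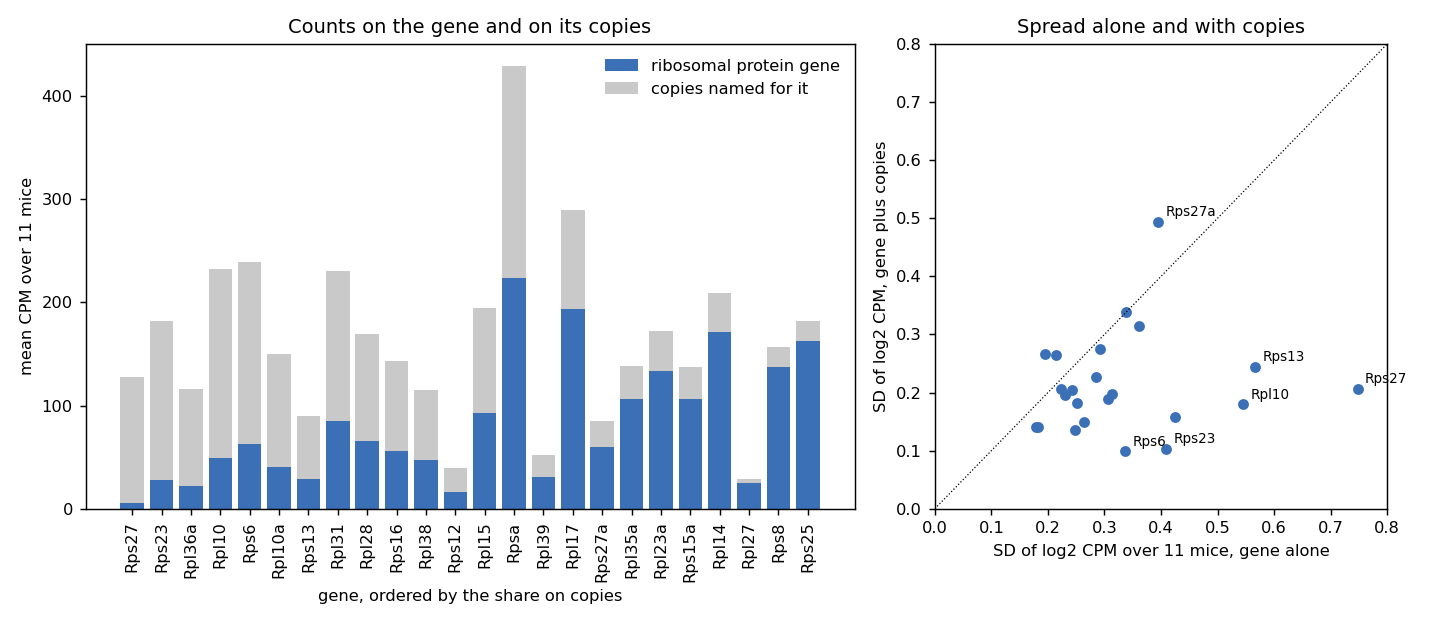
Left, mean CPM over 11 mice on 24 genes (blue) and on the copies named for them (grey), ordered by the share on copies, from Rps27 (95.5%) down. Right, the SD of log2 CPM over 11 mice for the gene alone (x axis) and for the gene plus copies (y axis), with points under the dotted line of equality for most genes (Rps12, with an SD of 4.03 alone, is not drawn).

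Rps12 was the extreme case. Its CPM was 0, 20.3 and 1.64 in less anxious mice 3, 7 and 12, then 12.7, 7.62, 36.0 and 0 in anxious mice 1, 4, 8 and 11, and 37.0, 58.6, 8.16 and 0 in more anxious mice 2, 6, 9 and 10. In the 3 mice listed at 0 the 23 copies of Rps12 had 33.3, 20.2 and 28.1 CPM. Whether those reads came from Rps12 or from its copies was not tested. With copies added the values ran from 18.0 to 72.8 CPM and the SD fell from 4.03 to 0.64.

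Across mice the genes moved together. All 79 genes combined took 1.12%, 1.04% and 0.884% of the reads in less anxious mice 3, 7 and 12. They took 0.927%, 1.05%, 1.14% and 0.908% in anxious mice 1, 4, 8 and 11, and 1.06%, 1.04%, 1.06% and 0.973% in more anxious mice 2, 6, 9 and 10. Mice 8 and 3 were highest and mice 12 and 11 lowest, and each of the less anxious and anxious groups held mice from both ends, so the groups overlapped fully. The group means were 1.02% ± 0.12 (SD, n = 3), 1.01% ± 0.108 (SD, n = 4) and 1.03% ± 0.0423 (SD, n = 4) in order of the labels, and the difference of more against less anxious mice lay within the spread of either group. In bulk tissue a lower share cannot be told apart from fewer cells of a ribosome-rich type.

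In mouse 3, 58 of the 79 genes lay above their own mean of log2 CPM over the 11 mice, with a median deviation of 0.24. In mouse 8 the number was 66, with a median of 0.14. In mouse 12 it was 3, with a median of -0.27, and in mouse 11 it was 9, with a median of -0.24 (plot of deviations by mouse). The share of the large subunit (0.553% to 0.708%) and that of the small subunit (0.331% to 0.435%) rose and fell together over the 11 mice, with r = 0.97 as a description, since both are parts of the same libraries. The ratio of large to small subunit reads stayed between 1.57 (mouse 3) and 1.68 (mouse 9).

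**Figure D3:**
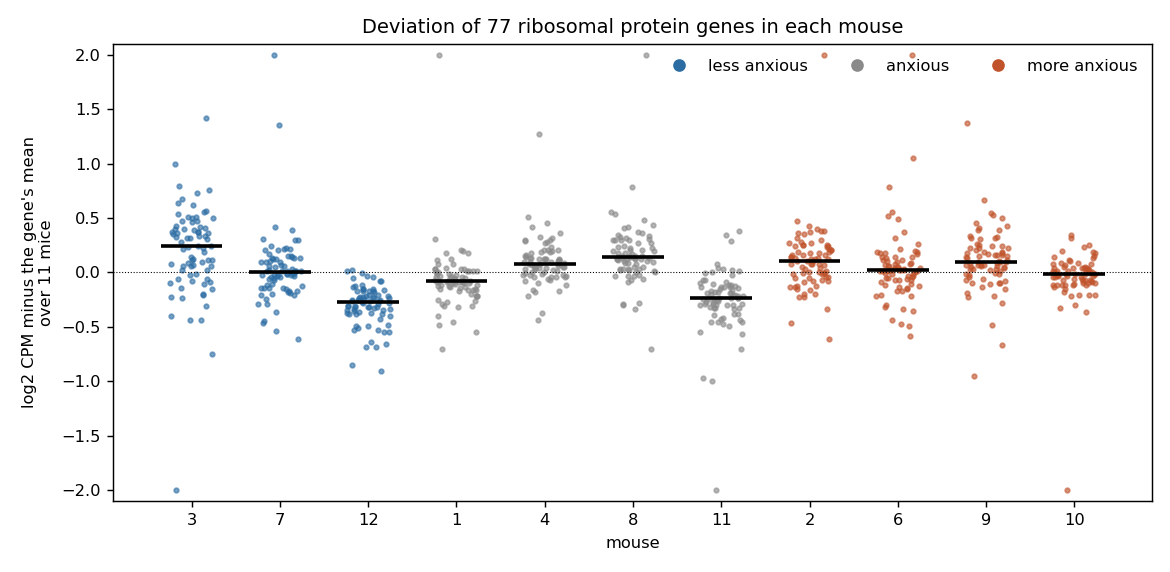
Deviation of log2 CPM from each gene's mean over 11 mice for the 77 genes with a mean of at least 1 CPM (points, values beyond 2 drawn at 2) and the median in each mouse (bars), mice ordered by group. Medians are highest in mouse 3 and lowest in mice 12 and 11, and no group is set apart.

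Over the 77 genes with at least 1 CPM, the pairwise Pearson r of log2 CPM across 11 mice had a median of 0.45 and quartiles of 0.16 and 0.66, and 84.2% of the 2926 pairs were above 0. Without mouse 3 the median was 0.47. For comparison the median r was 0.37 among 78 mitochondrial ribosomal protein genes, 0.11 among 35 translation factors and 0.14 among 30 ribosome biogenesis genes. These values describe the same 11 libraries and were not tested. Among single genes, Rpl11, which carries 5S rRNA with Rpl5, and Rpl13a followed the sum of the others closely, with r of 0.94 and 0.93. Rpl3l (r = -0.30), Rpl27 (r = -0.09) and Rps27l (r = -0.03) were the 3 of the 79 with a negative value.

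The most stable genes across mice were Rpl4 (SD of log2 CPM 0.10), Rplp0, the base of the stalk (0.11), Rpl8 (0.11), Rpl3 (0.12) and Rpl19 (0.12). Rpl4 had 352 to 443 CPM over the 11 mice. The least stable with at least 1 CPM were Rps12, Rps27, Rps13 (SD 0.57), Rpl10 and Rps7 (SD 0.48), the last with no copy by name and 22.4 CPM in mouse 12 against 59.3 in mouse 8. Of genes widely used as references in quantitative PCR, Rpl19 had an SD of 0.12, Rps18 of 0.16 and Rpl13a of 0.19, against a median of 0.21 over 15891 genes with at least 1 CPM.

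The study tested which transcripts differ among the 3 groups of mice. In edgeR's quasi-likelihood test of any difference among the 3 groups, with the first principal component as a covariate, 0 of the 79 genes had an adjusted p under 0.05, where 0.00742% of all genes tested did. The smallest adjusted p among the 79 was 0.339, for Rpl36. DESeq2 in the same model called 1 of the 79, also Rpl36 (adjusted p = 0.00828), where it called 0.708% of all genes. At an unadjusted p under 0.05 edgeR gave 8 of the 79 (10.1%), against 6.35% of all genes. Of these, Rpl28, Rpl35, Rpl36, Rpl41, Rps10, Rps23 and Rps26 were higher and Rps4x lower in more than in less anxious mice. That count rested on single mice, since it was 20 without mouse 3, 4 without mouse 2, 5 without mouse 7, 1 without mouse 9 and 5 without mouse 10, against 8 with all. In the same fits 7.31%, 8.01%, 5.19%, 4.57% and 5.66% of all genes passed, in that order.

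Rpl36, a 60S protein whose gene lies at chr17:56613416-56614243 on the plus strand with 4 exons, had the smallest p of the 79 among the 3 groups. Its CPM was 43.6, 73.9 and 46.5 in less anxious mice 3, 7 and 12, then 70.1, 63.0, 106.5 and 56.3 in anxious mice 1, 4, 8 and 11, and 98.6, 108.0, 103.6 and 74.3 in more anxious mice 2, 6, 9 and 10. Each more anxious mouse lay above each less anxious mouse, though mouse 10 and mouse 7 nearly met, and the anxious mice spanned both. The means were 54.7 ± 16.7 (SD, n = 3), 74.0 ± 22.4 (SD, n = 4) and 96.1 ± 15.0 CPM (SD, n = 4). The fitted difference of more against less anxious mice was 0.75 on the log2 scale (SE 0.16), with adjusted p = 0.128 in edgeR and 0.00267 in DESeq2. Rpl36 has the highest GC content of the 79 genes, 60.8% of its transcript, and when GC content and transcript length entered as an offset per library its difference fell to 0.43. The part of GC content in this difference was not tested further. With the measures recorded in the animals, Rpl36 had no unadjusted p under 0.05 in edgeR. The values were 0.453 for open-arm time, 0.384 for maze entries, 0.259 for distance in the light and 0.289 for the social ratio.

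Rpl28, a 60S protein of chr7, had 56.4, 58.3 and 53.4 CPM in mice 3, 7 and 12, then 63.1, 72.3, 66.3 and 56.5 in mice 1, 4, 8 and 11, and 71.7, 59.9, 80.2 and 82.4 in mice 2, 6, 9 and 10. The less anxious mice formed a narrow band below all 4 more anxious mice, with mouse 6 the nearest. The difference was 0.40 (SE 0.12), with adjusted p = 0.332 in edgeR, and it was 0.42 when the reads on its copies, 61.4% of the joint value, were added. Rpl28 also fell with open-arm time and with distance in the light (edgeR unadjusted p = 0.00218 and 0.0131, adjusted p = 0.568 and 0.848). With maze entries and the social ratio its unadjusted p in edgeR was 0.127 and 0.753.

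Rps10, a 40S protein near the mRNA entry, had 129.9, 132.1 and 106.1 CPM in mice 3, 7 and 12, then 129.7, 135.1, 152.6 and 120.9 in mice 1, 4, 8 and 11, and 158.6, 154.3, 162.8 and 138.1 in mice 2, 6, 9 and 10. More and less anxious mice did not overlap, and the difference was 0.30 (SE 0.11) with adjusted p = 0.413 in edgeR. Its transcript is the second richest in GC (60.3%), and with the GC and length offset the difference was 0.086.

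Rps4x, a 40S protein encoded on the X chromosome, was the lower one. Its CPM was 276.9, 243.8 and 223.8 in mice 3, 7 and 12, then 207.3, 223.9, 239.8 and 203.5 in mice 1, 4, 8 and 11, and 188.2, 223.3, 208.8 and 200.4 in mice 2, 6, 9 and 10. The less anxious mice lay above the more anxious ones, by a margin of under 1 CPM between mice 12 and 6. The difference was -0.29 (SE 0.10) with adjusted p = 0.427 in edgeR, and -0.17 without mouse 3. The other X-linked genes, Rpl10, Rpl36a and Rpl39, had fitted differences of -0.51, 0.13 and -0.06, none with an unadjusted p under 0.05.

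**Figure D4:**
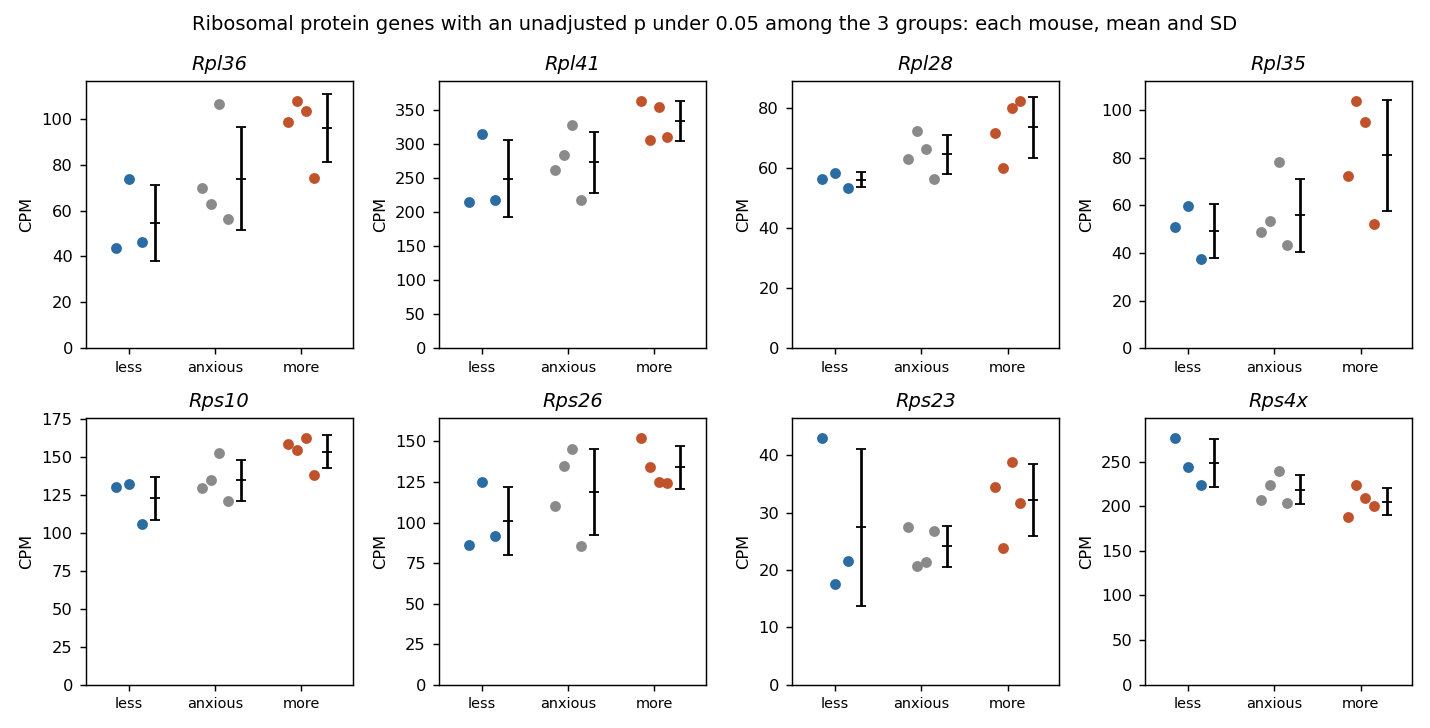
CPM in each mouse (points) with the group mean and SD (bars) for the 8 genes with an unadjusted p under 0.05 among the 3 groups, axes starting at 0. More anxious mice lie above less anxious mice without overlap for Rpl36, Rpl28 and Rps10 and below them for Rps4x, while Rps23 has its highest value in less anxious mouse 3.

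The groups of more and less anxious mice overlapped for most genes. Every more anxious mouse lay above every less anxious mouse for 4 of the 79 genes (Rpl28, Rpl31, Rpl36 and Rps10), where 4.49% of all genes did so, and below for 1 (Rps4x), where 3.91% did. Rpl31, at the tunnel exit, had 75.1, 81.8 and 57.2 CPM in the less anxious and 108.9, 89.0, 94.8 and 92.9 CPM in the more anxious mice. With the reads on its 21 copies added, its difference went from 0.39 to 0.13.

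Rpl41, Rps26, Rpl35 and Rps23 overlapped between the groups. Rpl41 averaged 249.6 ± 56.6 (SD, n = 3), 273.4 ± 45.5 (SD, n = 4) and 334.2 ± 29.6 CPM (SD, n = 4), a difference of 0.39 between more and less anxious mice, and 0.21 with the GC and length offset. Rps26 averaged 101.1 ± 20.9 (SD, n = 3), 118.9 ± 26.6 (SD, n = 4) and 134.0 ± 13.1 CPM (SD, n = 4). In Rpl35, a docking protein at the tunnel exit, mice 6 and 9 stood out at 103.9 and 95.2 CPM, where less anxious mice had 37.3 to 59.8, and the difference was 0.62 (SE 0.23), or 0.38 without mouse 9. For Rps23 the difference of 0.43 was 0.011 once the reads of its copies were added, and the highest single value, 43.1 CPM, belonged to less anxious mouse 3. The Rps23 difference without copies ran from 0.29 to 0.67 with 1 mouse left out.

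In the contrast of more against less anxious mice 0 of the 79 genes had an adjusted p under 0.05 in edgeR and 1 in DESeq2, again Rpl36. The share of all genes called at an adjusted p in this contrast is not given here. In edgeR 11 had an unadjusted p under 0.05 (9 higher, 2 lower, 13.9%), against 8.84% of all genes. These were the 8 above with Rpl31 and Rplp2, both higher, and Rpl9, lower. The count was 22 without mouse 3, where 9.15% of all genes passed, and 7 without mouse 7 (7.12%) or without mouse 9 (6.43%). Fitted differences of the 79 were positive for 48 and negative for 31, with a median of 0.034 against 0.0036 over all genes. Without mouse 3 the median was 0.22 and 69 were positive, without mouse 12 it was -0.075 and 25 were positive, and mouse 3 had the highest and mouse 12 the lowest median deviation of these transcripts among all 11 mice. With the GC and length offset the median was -0.015 and 36 were positive. Across the 77 genes with at least 1 CPM the fitted difference rose with GC content (Spearman rho = 0.31), as it did across 15827 genes of any kind (rho = 0.31), which describes genes in the same 11 libraries.

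Beside Rpl36, Rpl35 and Rps23, the largest positive differences with at least 1 CPM were those of Rps12 (2.01, SE 1.59) and Rps27a (0.43, SE 0.25). The largest negative ones were Rps27 (-0.61, SE 0.39), Rpl10 (-0.51, SE 0.34), Rps29 (-0.49, SE 0.27), Rpl9 (-0.34, SE 0.13) and Rpl38 (-0.29, SE 0.21), of which Rpl9 alone had an unadjusted p under 0.05. With copies added Rps27 and Rpl38 turned to 0.11 and 0.14, Rpl10 went to -0.16 and Rps12 to 0.71. Others gained a difference when copies were added, with Rps16 going from -0.02 to 0.30 and Rpsa, a 40S protein also known as a laminin receptor, from 0.0059 to -0.26, and neither passed at an adjusted p in edgeR. Both were named after their values were seen. Without mouse 3 Rpl10 was at -0.0055 and Rpl38 at 0.053, and without mouse 7 Rps27 was at -0.17. Rps27a was at 0.80 without mouse 3 and 0.21 without mouse 12, and Rps29 at -0.18 without mouse 3. Rpl9, near the sarcin-ricin loop of the 60S subunit, had 216.1, 175.1 and 140.4 CPM in the less anxious and 132.7, 146.2, 149.4 and 131.9 CPM in the more anxious mice, and the difference was -0.14 without mouse 3. Rps29 ranged from 59.5 to 137.9 CPM within the anxious group alone.

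The intermediate group gave smaller counts. Anxious against less anxious mice gave 0 of 79 genes with an adjusted p under 0.05 in edgeR and in DESeq2, and 1 with an unadjusted p under 0.05 in each tool, where 4.74% of all genes passed edgeR's. The median difference was -0.019, or 0.13 without mouse 3 and 0.066 without mouse 11. With 1 mouse left out it reached -0.13 at the lowest. The edgeR gene was Rpl27, and leaving out 1 mouse gave counts from 0 to 6, the latter without mouse 3, where 6.76% of all genes passed. More against anxious mice gave 0 adjusted calls in both tools and 4 genes at an unadjusted p under 0.05 in edgeR (Rpl35, Rpl36, Rpl41 and Rps23, all higher), where 4.57% of all genes passed, and 6 in DESeq2, where 4.12% did. The median difference was 0.060, or -0.0054 without mouse 11. The count was 11 without mouse 3 (5.18% of all genes), 8 without mouse 8 (4.38%) or mouse 12 (4.63%), 2 without mouse 9 (3.49%) and 1 without mouse 11 (3.5%). The contrasts share mice and are given side by side only.

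Some cell type markers differed between more and less anxious mice, at an unadjusted p only. In more against less anxious mice, where 8.84% of all genes had an unadjusted p under 0.05, 4 of 8 neuronal markers did so with a higher level, and their summed CPM was 7882 to 9199 against 6879 to 8410. Lower levels at that threshold were found for 2 of 6 astrocyte, 1 of 6 oligodendrocyte, 1 of 6 microglial, 2 of 5 endothelial and 2 of 6 choroid plexus markers. Of 5 erythrocyte markers 0 passed. Sums of neuronal, oligodendrocyte, microglial, choroid plexus and erythrocyte markers overlapped between more and less anxious mice. Oligodendrocyte sums were 2116 to 2892 against 2651 to 3402 CPM and microglial ones 230 to 289 against 278 to 328. Choroid plexus sums were 9.86 to 17.4 against 16.0 to 24.6 CPM. The summed astrocyte markers were at 2276 to 2634 CPM in more and 2765 to 3389 CPM in less anxious mice, and the endothelial ones at 69.4 to 89.9 against 98.4 to 142.5. The 4 pituitary markers summed to 1.11 to 1.63 CPM in more and 2.14 to 3.67 CPM in less anxious mice, with mouse 4 of the anxious group apart at 56.7 CPM, and none of them had an unadjusted p under 0.05. No marker was at 0 in all mice, none passed at an adjusted p, and their part in the values of the ribosomal protein genes was not tested.

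Measures taken from the mice give a comparison free of the grouping. Each was tested without the groups, per SD of the measure over 11 mice. For the share of maze time spent on open arms, a measure that is lower in animals that avoid exposure, 0 of 79 genes passed at an adjusted p in edgeR and 8 had an unadjusted p under 0.05 (2 rising and 6 falling with the measure), against 5.84% of all genes. The count was 4 without mouse 2 (4.54% of all genes), 16 without mouse 3 (7.07%) and 17 with the first principal component as covariate, where 8.26% of all genes passed. With all 11 mice and no covariate the 6 falling genes were Rpl7a, Rpl17, Rpl21, Rpl22, Rpl28 and Rps23. Their adjusted p in edgeR was at least 0.465. DESeq2 called 1 of 79, Rps27, a rising one (adjusted p = 0.0317), where 0.163% of all genes were called. Rps27 had its highest values, 13.1 and 10.5 CPM, in mice 7 and 6, which spent 24.5% and 29.2% of the time on the open arms, and 3.30 CPM in mouse 2, which spent 2.33%. Mouse 12 spent 24.6% of the time there and had 3.13 CPM, among the lowest. In edgeR its slope was 0.59 with adjusted p = 0.485, and 95.5% of its joint value lies on copies. Rps27 was named here after its values were seen.

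For total entries in the maze 0 of 79 genes passed at an adjusted p in edgeR or in DESeq2 and 6 had an unadjusted p under 0.05 in each, all falling as entries rose, against 6.97% of all genes in edgeR, and 1 without mouse 2, where 3.74% did. For the share of distance covered in the light these were 0 in both tools and 2 in both, both falling, against 5.8% of all genes. Leaving out 1 mouse moved the latter count to 1 (mouse 2 or mouse 9), 5 (mouse 11), 6 (mouse 3) or 11 (mouse 6), where 4.38% (mouse 2), 5.98% (mouse 9), 5.45% (mouse 11), 4.96% (mouse 3) and 10.8% (mouse 6) of all genes passed. The median slope of the 79 was -0.057 per SD for open-arm time, -0.057 for entries and -0.033 for distance in the light. Without mouse 12 these were -0.016, -0.0026 and -0.016, and the slope for distance in the light was -0.075 without mouse 3, -0.021 without mouse 2 and -0.019 without mouse 9. With the first principal component as covariate, 10 of 79 passed for entries and 5 for distance in the light, where 8.53% and 6.41% of all genes did.

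The social interaction test gave the largest count. The box:zone ratio relates time in the box next to a stranger mouse to time in the zone farther off, over 10 min. With it 0 of 79 genes passed at an adjusted p in edgeR, and 17 had an unadjusted p under 0.05 (21.5%), all rising with the ratio, against 8.05% of all genes. They came from both subunits, among them Rpl5, Rpl9, Rpl15, Rpl24, Rpl27a, Rps6, Rps13, Rps18 and Rps23. Without mouse 3 the count was 0 of 79, where 2.84% of all genes passed. Mouse 3 had a ratio of 2.62, and the other 10 lay between 0.495 and 1.58. With ranks of the ratio in place of its values 6 of 79 passed, where 4.37% of all genes did.

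DESeq2 called 3 of 79 for this ratio, Rps13, Rpl24 and Rpl27a, where it called 0.412% of all genes (plot of transcripts against the social ratio). They were named after their values were seen. Rps13 had 70.2 CPM in mouse 3 and 17.5 to 38.3 CPM in the other 10 mice, and Rpl24 had 93.0 CPM against 33.4 to 61.3. Rpl27a, with the longest pyrimidine run among the windows printed above, had 89.0 CPM in mouse 3, 81.0 in mouse 8 with the next highest ratio, 67.6 in mouse 10 with a ratio of 1.50 and 66.7 in mouse 2 with the lowest. The edgeR slopes per SD were 0.43 for Rps13, 0.31 for Rpl24 and 0.11 for Rpl27a, with adjusted p of 0.307, 0.307 and 0.426, and without mouse 3 they were 0.079, 0.078 and 0.068. For Rps13, 68.5% of the joint value lies on copies, and Rpl24 has none by name.

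**Figure D5:**
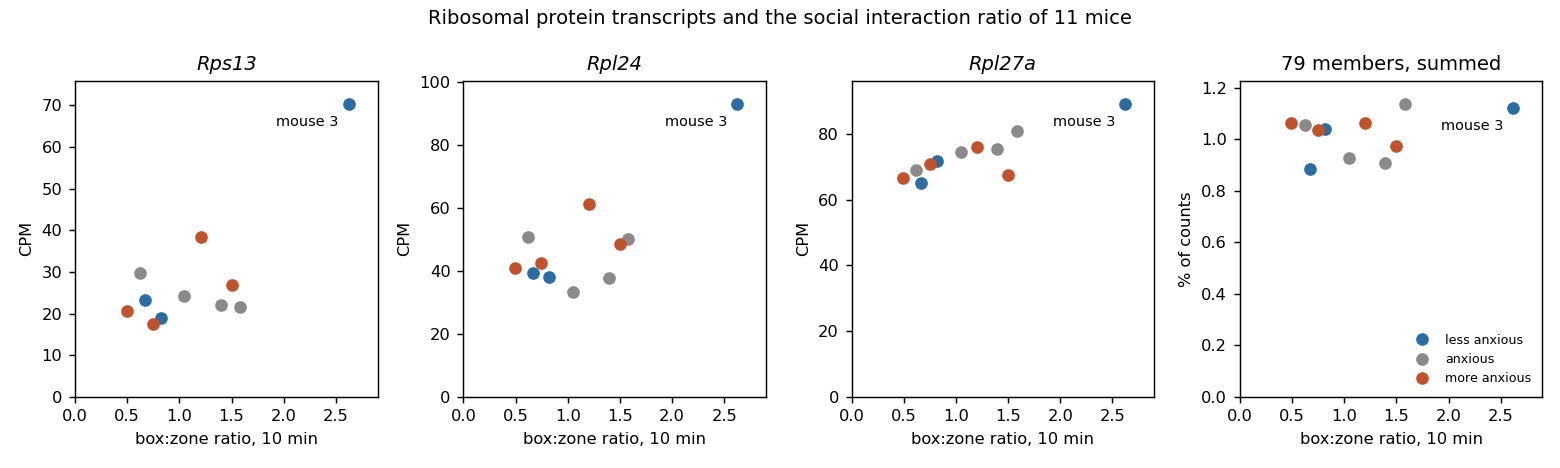
CPM of Rps13, Rpl24 and Rpl27a and the share of reads on all 79 genes (y axes, from 0) against the box:zone ratio over 10 min (x axis) in 11 mice, coloured by group. Mouse 3, with a ratio of 2.62, has the highest value of each of the 3 genes and stands apart in Rps13 and Rpl24.

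The wider translation machinery was read in the same fits. Of 35 translation factors, 0 passed at an adjusted p among the groups and 3 were higher in more than in less anxious mice at an unadjusted p under 0.05, 8.57% of the list against 8.84% of all genes in that contrast, namely Eef1a2, the neuronal form of elongation factor 1A (0.24), Eif3g (0.22) and Eif4e, the cap-binding protein (0.23). Of 11 other transcripts with a pyrimidine tract or of ribosome partners, 0 passed either threshold in that contrast. Rack1, a scaffold on the 40S subunit, had a difference of -0.14 and Gas5, a non-coding host of small nucleolar RNAs, 0.051. Of 30 ribosome biogenesis genes 4 (13.3%) passed at the unadjusted threshold, Nhp2 (0.45), Fbl (0.43) and Rrs1 (0.28) higher and Dkc1 (-0.41) lower. Of 15 genes of S6 kinases and mTOR signaling 1 (6.67%) did, Rps6kb2, an S6 kinase, with 0.86 and adjusted p = 0.201 in edgeR. The study, which used DESeq2, reported Rps6kb2 as significantly upregulated in anxious mice. The substrate gene Rps6 had -0.04, or 0.048 with its copies added, and these transcript levels do not measure kinase activity. With the box:zone ratio 9 of 35 translation factors (25.7%) and 3 of the 11 partner transcripts (27.3%) had an unadjusted p under 0.05, all rising with the ratio, against 8.05% of all genes, while 1 of 30 biogenesis genes and 1 of 15 S6 kinase and mTOR genes did. Without mouse 3 these counts were all 0, where 2.84% of all genes passed. Npm1 belongs to both the partner and the biogenesis list, so the counts of those lists are not separate. None of the genes in these lists passed at an adjusted p in edgeR.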

How the data were processed

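Amygdala mRNA of 12 mice was sequenced as single-end reads of 75 bp. Per the study's methods, the authors prepared stranded mRNA libraries and, where necessary, trimmed adapters with cutadapt. They used STAR alignments to mm10 to judge library quality, and obtained gene values with Salmon and tximport. Tool versions, annotation release and use of strand are not given in the sources used here. The deposited values are estimated counts (expected counts), unnormalized and whole, for 47729 genes. All 12 columns belong to the series.

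Names, positions and lengths came from GENCODE M21 (GRCm38), which matched 47310 genes. Length and GC content are those of a coding transcript matched to RefSeq. Group tests used edgeR 4.0.16 (quasi-likelihood, robust, TMM, at least 10 reads over 11 mice, first principal component as covariate) under R 4.3.3, and measures were tested without covariate. P-values were adjusted by Benjamini-Hochberg over all genes, with a threshold of 0.05. SE was the log2 difference divided by the root of the F statistic. DESeq2 1.42.0 was an alternative, and it gave Rpl3l and Rpl39l no adjusted p in the group test. Log2 CPM used a prior count of 2. Copies are genes whose symbol adds -ps to a member's, and Rps27rt. Scripts were tested on simulated data.

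The genes, lists and tests were chosen with earlier results of these data known. Genes named individually were those called by edgeR or DESeq2, the 5 largest differences in each direction, the 5 highest and 5 lowest levels per kb, genes under 1 CPM, the 5 most and 5 least variable, and genes of fixed roles, and others were added after seeing values, as with genes at an unadjusted p under 0.05 and genes whose groups did not overlap. Alternatives were other scaling, filters, covariates, a GC and length offset, and each mouse left out. Adding copies to a gene, the lists without mouse 3, ranks of a measure, the ratio over 5 or 3 min and shares without mitochondrial transcripts were chosen after seeing the data. The samples of a group are separate mice with 1 library each. Some single genes are not reported here.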

Additional observations from a re-analysis of the deposited data

Results flagged for a closer look

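Of 60 checks of a single mouse against the rest of its group of 4, 5 showed a mouse far from the others, where chance gives about 1 in 20. Rpl26 had 194.1 CPM in anxious mouse 11 against 230.0 to 234.0 in the other anxious mice. Rpl3l had 0.489 CPM in anxious mouse 1 against 0.184 to 0.218, and Rpl39l had 0.273 CPM in anxious mouse 8 against 0.0263 to 0.0604, both from very few reads. Rps27 stood apart in both groups, with 3.45 CPM in anxious mouse 1 against 6.24 to 6.75, and 10.5 CPM in more anxious mouse 6 against 2.58 to 3.92.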

How the results depend on the processing

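No paired analysis was possible because each number in the labels names a single mouse and the groups share none. With DESeq2 the number of ribosomal protein genes at an adjusted p under 0.05 was 1 for any group difference, 1 for more against less anxious mice, 1 for open-arm time and 3 for the box:zone ratio, where edgeR gave 0 in each. With edgeR it stayed at 0 in all 8 tests under every alternative run. At an unadjusted p under 0.05, no covariate gave 0 for anxious against less anxious and 1 for more against anxious mice. With the first principal component as covariate the counts were 17 for open-arm time, 10 for entries and 5 for distance in the light. Including mouse 5 gave 1 for distance in the light, and ranks gave 4 for it and 6 for the box:zone ratio. The share of all genes is not given here for the contrasts without covariate, for mouse 5 included or for ranks of distance. The median difference of more against less anxious mice turned to -0.015 with the GC and length offset. With copies added Rpl38 turned to 0.14 and Rps27 to 0.11. The causes were not tested.

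Leaving out each of 11 mice gave counts at an unadjusted p of 1 to 20 for any difference, 7 to 22 for more against less, 0 to 6 for anxious against less and 1 to 11 for more against anxious mice, 4 to 16 for open-arm time, 1 to 9 for entries, 1 to 11 for distance in the light and 0 to 25 for the box:zone ratio. The share of all genes passing moved too, from 4.57% to 8.01% for any difference. For the counts of 9 and 25 that share is not given here, so they are not read as results about these genes. Median differences ran from -0.075 to 0.22, from -0.13 to 0.13 and from -0.0054 to 0.10 in the 3 contrasts in that order, and Rpl38 from -0.48 to 0.053. Rpl36 stayed between 0.58 and 0.85. The ratio of the summed share in more over less anxious mice was 1.02, and 0.957 to 1.07 with 1 mouse left out. Depth limits Rpl3l and Rpl39l, which had 117 and 35 reads over 11 libraries, and the division of reads between genes and near-identical copies limits the 24 genes with at least 10% on copies.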

Other observations

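The 78 mitochondrial ribosomal protein genes, whose products translate the few proteins encoded in mitochondria, had higher fitted levels in more than in less anxious mice for 68 of 78, with a median of 0.10 against 0.0036 over all genes. At an unadjusted p under 0.05 there were 14, all higher (17.9%), where 8.84% of all genes passed, and at an adjusted p in edgeR there were 0. In anxious against less anxious mice 65 of 78 were higher, with a median of 0.10 against 0.0039 over all genes, and 4 (5.13%) had an unadjusted p under 0.05, against 4.74% of all genes. In more against anxious mice 47 were higher and 3 (3.85%) passed, against 4.57%. These contrasts share mice, and the 78 genes varied together over them (median pairwise r = 0.37), so the counts are not separate observations. The share of all genes with a higher fitted level is not given here, so the counts of higher genes are not read as results about this list. Values for this list with 1 mouse left out of these contrasts or with the GC and length offset are not given here.

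The transcripts whose log2 CPM followed the summed 79 genes most closely over the 11 mice, among 10279 other genes with at least 10 CPM, were Tomm7 (r = 0.94), a subunit of the mitochondrial import channel, Ndufs8 (r = 0.93), a subunit of respiratory complex I, Gm14539 (r = 0.93), 2410006H16Rik (r = 0.92) and the retrogene Rps27rt (r = 0.91). Without mouse 3 these values were 0.94, 0.92, 0.93, 0.91 and 0.90. They are descriptions over 11 libraries.

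Mouse 5 has no group, and the study left it out as an outlier in expression. It had reads on 23768 genes, against 26378 to 28196 in the other mice. The 79 genes took 0.920% of the reads of mouse 5, within the range of the other mice. Its ratio of large to small subunit reads was 1.76, above the 1.57 to 1.68 of the others, and its copies took 0.163% of reads against 0.183% to 0.221%. Rpl10 was at 104.9 CPM in this mouse and at 23.3 to 80.1 CPM in the others.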
